A study of Mus musculus with 30 samples.

Results

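The sodium pump family was described in the developing mouse hippocampus. Its members were chosen by gene symbol: every probe set of the array whose single symbol begins with Atp1a, Atp1b or Fxyd. This gave 10 probe sets of 12488, for 8 genes of the 8252 with a probe set of their own: 3 beta subunits (Atp1b1 and Atp1b2 with 2 probe sets each, and Atp1b3) and 5 FXYD proteins (Fxyd1, Fxyd2, Fxyd3, Fxyd5 and Fxyd7). The platform annotation used here assigned 0 probe sets to a single Atp1a symbol, so the catalytic alpha subunits were not analysed here. The family was singled out with earlier wild-type age values of these arrays known. The wild-type age course is therefore given as a description, and tests were kept to the heterozygous age course and to the comparisons between genotypes, which also draw on those wild-type libraries. Earlier results of the heterozygous libraries were known too, so these tests are not independent support for the choice.

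Total RNA was measured on 30 Affymetrix MG-U74Av2 arrays, a single-colour expression array. Heterozygous (Het) libraries came from male pups with 1 mutant Nf1 allele, and numbered 4, 4, 2, 2, 2 and 1 at postnatal days 10, 15, 18, 20, 28 and 32 (P10 to P32). Wild-type (WT) libraries came from male pups of the same breeding of C57BL/6 with Nf1 heterozygous mice, and numbered 3, 4, 2, 2, 2 and 2 at those ages. No treatment is named for either genotype, and each library pooled hippocampi of 2 pups, so the values are of pools and p-values measure only the spread between pools. Nf1 encodes neurofibromin, which switches off Ras signalling. By mean level its probe set ranked in the 13.5th percentile of the array, with a lowest, median and highest intensity of 2.15, 5.09 and 15.04 in Het libraries and 1.43, 6.17 and 19.1 in WT libraries, so it did not check the genotype labels. Levels are the deposited intensities in array units, changes are differences of log2 intensity, and calls were made below an adjusted p-value of 0.05, taken over 7453 probe sets in a limma fit of all 30 libraries.

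Some libraries stood apart in ways that touch the results at P18 and P20. Het P18 library 1b correlated with its partner at 0.93 over all tested probe sets, against at least 0.95 within every other group. Its Gapdh control probe sets, which gauge how evenly a transcript is labelled along its length, had a log2 ratio of 3' over 5' signal of 0.48, the highest of all 30 libraries. The other Het libraries at P18 and P20 had ratios of -0.05, 0.00 and 0.17, and the 4 WT libraries at those ages had ratios between -0.33 and -0.23. The WT P20 libraries were also the only ones after P15 whose titles carry the number 2, and no source used here gives the meaning of that number. At P20 the number and the genotype cannot be told apart. Where the results without Het P18 library 1b or with the Gapdh ratio in the model differ in their call or by much in size, those values follow the result.

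The sodium pump, Na,K-ATPase, exports sodium and imports potassium at the expense of ATP, and in brain it restores the ion gradients that action potentials and synaptic currents run down. A catalytic alpha subunit carries the ions. A beta subunit, a glycoprotein that crosses the membrane once, is needed for folding and delivery of the enzyme to the cell surface, and a small FXYD protein can bind the complex and tune its affinity for ions. Neurons and glia use different combinations of these subunits.

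The promoters of Atp1b1 and Fxyd1 are shown because both members were called higher in Het libraries at P15 than at P10, and because Fxyd1 lies beside Fxyd7, whose level moved the other way. RefSeq promoter windows (mouse GRCm38.p6, 250 bases before to 50 after the start) were found for 5 of the 8 genes. Fxyd7 was not among the 5, nor was Atp1b2, which was also called higher in Het libraries at P15 than at P10. The Atp1b1 window spans the upstream end of the annotated gene, and the Fxyd1 window belongs to a transcript start inside the gene as annotated. Atp1b1 is read from chr1:164458306-164458605 and Fxyd1 from chr7:31054804-31055103, both on the minus strand. Capitals mark every match on either strand to the GC box letters GGGCGG (reverse CCGCCC), the CCAAT box letters CCAAT (reverse ATTGG) and the TATA box letters TATAAA (reverse TTTATA), and no match overlapped another.
Atp1b1: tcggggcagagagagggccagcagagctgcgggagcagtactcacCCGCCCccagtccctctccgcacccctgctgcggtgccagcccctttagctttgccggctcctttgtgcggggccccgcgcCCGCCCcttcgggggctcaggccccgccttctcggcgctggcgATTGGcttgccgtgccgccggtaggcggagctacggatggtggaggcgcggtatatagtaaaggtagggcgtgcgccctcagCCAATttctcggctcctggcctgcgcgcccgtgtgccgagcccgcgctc
Fxyd1: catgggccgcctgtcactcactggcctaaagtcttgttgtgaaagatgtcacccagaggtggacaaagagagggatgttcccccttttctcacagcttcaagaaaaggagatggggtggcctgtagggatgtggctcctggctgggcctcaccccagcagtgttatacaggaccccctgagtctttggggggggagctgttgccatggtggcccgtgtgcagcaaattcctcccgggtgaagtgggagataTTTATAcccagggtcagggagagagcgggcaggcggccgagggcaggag
The Atp1b1 window held 2 GC box matches and 2 CCAAT box matches, and the Fxyd1 window held 1 TATA box match. That TATA match was to the reverse letters and began 1 base after the start, not before it. A CCAAT match of Atp1b1 also began 1 base after its start. Among 32851 RefSeq windows of the same 300 bases, 35.7% held the GC box letters, 37.4% the CCAAT letters and 13.6% the TATA letters. A match of letters is a description and not a shown binding site.

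The FXYD genes differ in their genomic setting. Fxyd5 (chr7:31032723-31042331), Fxyd7 (chr7:31042515-31051454), Fxyd1 (chr7:31051678-31055873) and Fxyd3 (chr7:31070535-31076697) follow each other on mouse chromosome 7 (GRCm38.p6). There are 183 bases between Fxyd5 and Fxyd7, 223 between Fxyd7 and Fxyd1 and 14661 between Fxyd1 and Fxyd3, with 0 protein-coding genes between any of these neighbours. Fxyd2 (chr9:45399709-45410278) and Atp1b3 (chr9:96332655-96364431) lie on chromosome 9, Atp1b1 (chr1:164437099-164458355) on chromosome 1 and Atp1b2 (chr11:69599728-69605978) on chromosome 11.

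Of the 10 member probe sets, 7 passed the filter that left out the dimmest 40% of probe sets, 1 for each gene except Fxyd3. The nearest member inside the filter was Fxyd5, with a mean log2 intensity of 5.32, and the nearest outside was the dimmer Atp1b1 probe set, with 4.28. The second Atp1b1 probe set lay between 4.78 and 41.1, the second Atp1b2 probe set between 2.71 and 14.6, and Fxyd3 between 2.88 and 21.9. These 3 probe sets were not tested. The Atp1b1 and Atp1b2 values below come from the brighter probe set of each gene. The annotation used here listed a source sequence for the dimmer Atp1b1 probe set but none for the brighter. Whether the brighter Atp1b1 probe set detects this gene alone was not tested, so the Atp1b1 values below are those of that probe set. In Het libraries the dimmer Atp1b1 probe set averaged 29.9 at P10 and 15.6 at P28 and P32, opposite in direction to the brighter one. In WT libraries it averaged 22.3 and 25.1 at those ages.

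Between P10 and the ages P28 and P32 together, 3 of the 7 tested members changed in Het libraries. Atp1b1 rose 2.02-fold, and Fxyd7 and Fxyd5 fell to 0.152 and 0.570 of their P10 level. In this comparison 36.5% of all tested probe sets were called, so the share of members called, 3 of 7, is close to that of the array as a whole. The median log2 difference was -0.04 over the 7 members and -0.06 over all tested probe sets. The size of the Fxyd7 change ranked 24th of 7453 in Het libraries, and that of Atp1b1 516th.

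**Figure D1:**
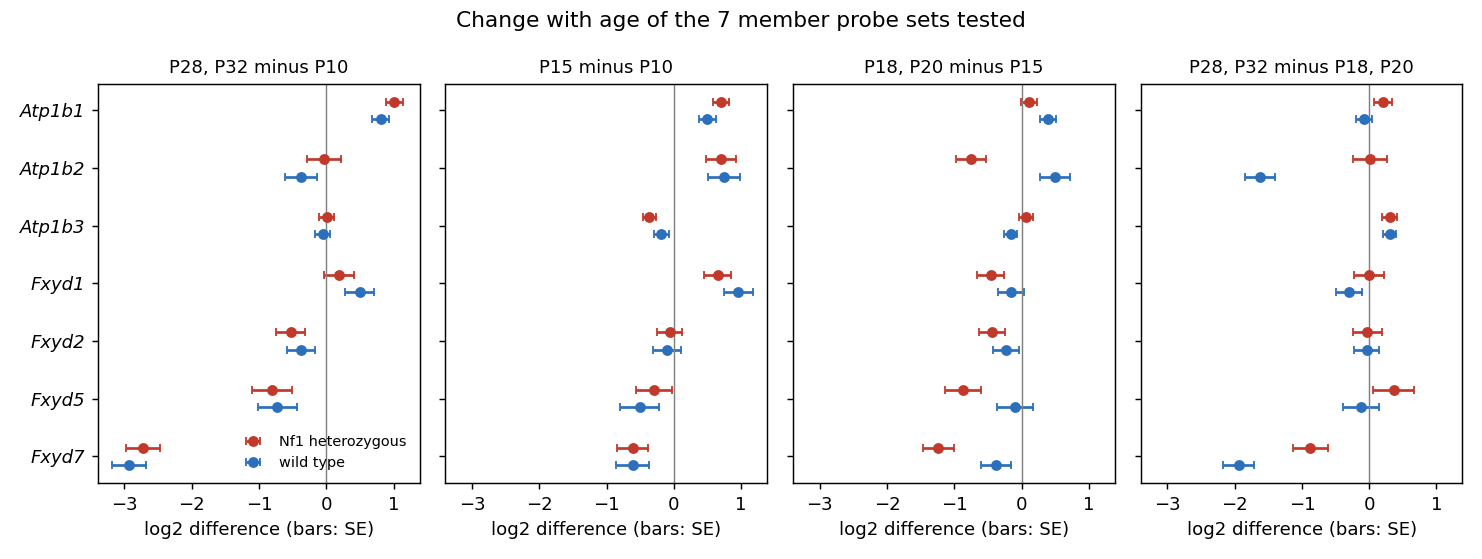
Log2 differences between ages for the 7 tested members, Het (red, above) and WT (blue, below). Points are fitted differences, bars their SE, and the axis is shared by the panels. Fxyd7 lies at -2.72 in Het and -2.93 in WT libraries over the whole span, Atp1b1 lies at 1.01 and 0.81, and Atp1b2 lies at -0.75 in Het and 0.50 in WT libraries from P15 to P18 and P20.

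Atp1b1 encodes the beta-1 subunit, the most widely used beta subunit and abundant in neurons. Its intensity at P10 was 256, 290, 282 and 267 in Het libraries, against 293, 287 and 288 in WT libraries. At P15 it was 528, 330, 436 and 505 in Het libraries and 433, 452, 423 and 335 in WT libraries. All 8 libraries of P15 lay above all 7 of P10, and the genotypes overlapped at P15. At P18 the values were 511 and 481 in Het and 512 and 486 in WT libraries. At P20 they were 465 and 462 in Het and 540 and 616 in WT libraries. Both WT values at P20 were above both Het values, while at P18 the genotypes overlapped. At P28 the values were 654 and 618 in Het and 453 and 575 in WT libraries, and at P32 they were 478 in Het and 509 and 505 in WT libraries. The order of the genotypes at P28 was the opposite of that at P20, with both Het values above both WT values. Het libraries averaged 583 ± 93.1 at P28 and P32 (SD, n = 3), against 274 ± 15.3 at P10 (SD, n = 4). WT libraries averaged 511 and lay between 453 and 575 (n = 4), against 290 ± 3.19 (SD, n = 3). The Het change was 1.01 ± 0.13 on the log2 scale (SE), with an adjusted p-value of 2.22e-06 in limma. It remained called under all 41 alternatives, where it lay between 0.93 and 1.22. The difference was 0.81 ± 0.13 (SE) in WT libraries. Tissue RNA cannot tell more cells of a type from more RNA per cell, for Atp1b1 or any other member.

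Most of the Het change in Atp1b1 was seen by P15. From P10 to P15 the gene rose by 0.70 ± 0.12 in Het libraries (adjusted p = 1.4e-04, limma), against a difference of 0.50 in WT libraries. From P15 to P18 and P20 the differences were 0.11 in Het (adjusted p = 0.514) and 0.39 in WT libraries, and from there to P28 and P32 they were 0.20 in Het (adjusted p = 0.453) and -0.08 in WT libraries. The P20 values lay below those of P18 in Het and above them in WT libraries, and both Het P28 values lay above all other Het values.

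**Figure D2:**
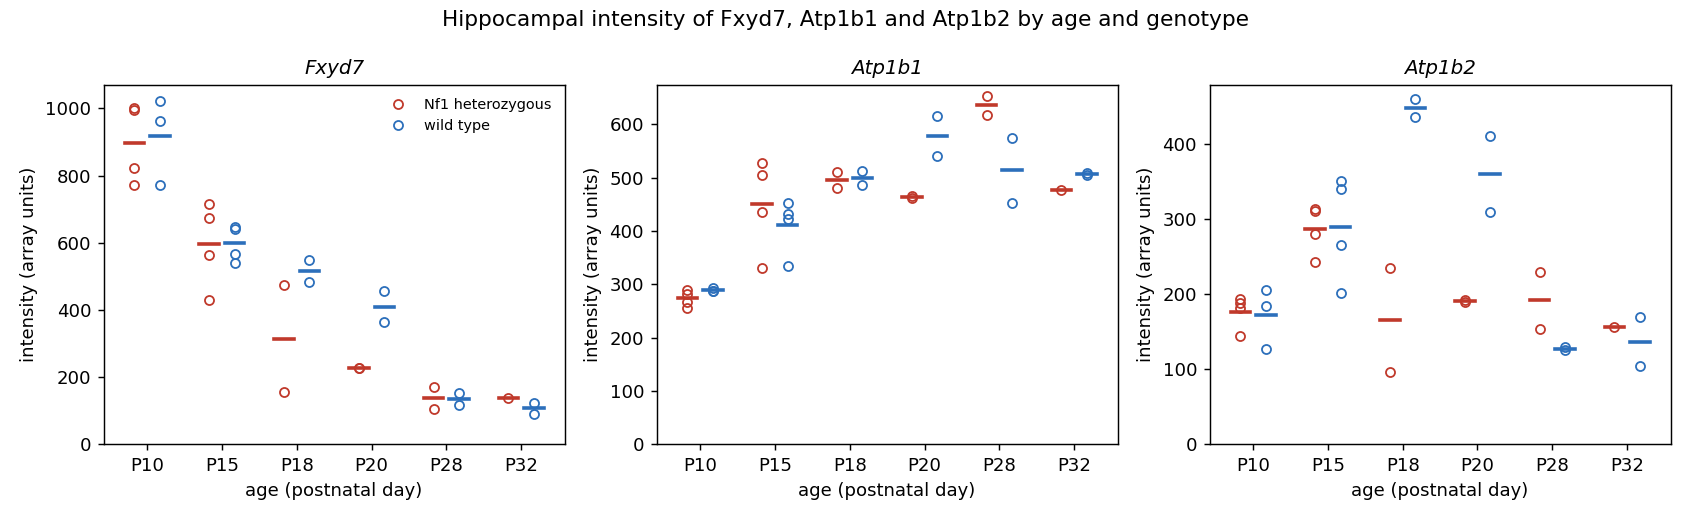
Intensity in array units of Fxyd7, Atp1b1 and Atp1b2 by age, with 1 circle per library, Het (red) left of WT (blue), and bars at group means. Fxyd7 averages 898 in Het and 918 in WT libraries at P10 and lies between 90.9 and 169 at P28 and P32. Atp1b2 reaches 461 in WT libraries at P18, against at most 235 in Het libraries of that age.

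Fxyd7 encodes a FXYD protein made chiefly in brain. Its intensity at P10 was 773, 994, 1001 and 822 in Het libraries, against 770, 1023 and 962 in WT libraries. At P15 it was 675, 715, 428 and 564 in Het libraries and 642, 648, 538 and 565 in WT libraries. The genotypes overlapped at both ages, and every P15 library lay below every P10 library. At P18 the values were 474 in Het library 1a, 155 in Het library 1b, and 549 and 484 in WT libraries. At P20 they were 227 and 226 in Het and 364 and 455 in WT libraries. Het values were below WT values at both ages, and the 2 Het P18 libraries were far apart. At P28 the values were 105 and 169 in Het and 153 and 118 in WT libraries, and at P32 they were 137 in Het and 90.9 and 123 in WT libraries. By P28 the genotypes overlapped again, and no library of P28 or P32 reached the level of any P10 or P15 library.

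Fxyd7 averaged 137 ± 32.05 in Het libraries at P28 and P32 (SD, n = 3), against 898 ± 117 at P10 (SD, n = 4). It averaged 121 ± 25.6 in WT libraries (SD, n = 4), against 918 ± 132 (SD, n = 3). In Het libraries the gene fell by 2.72 ± 0.26 on the log2 scale, 6.60-fold, with an adjusted p-value of 2.13e-08 in limma. The call held under all 41 alternatives, between -2.89 and -2.46. In WT libraries the difference was -2.93 ± 0.25, 7.64-fold lower at P28 and P32, the 16th by size of 7453. The difference between genotypes in this span was 0.21 ± 0.36 (adjusted p = 0.955).

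The Fxyd7 decline was spread over the age steps. From P10 to P15 the difference was -0.61 in Het (adjusted p = 0.0586, limma) and -0.61 in WT libraries. With the Gapdh ratio in the model these differences were -0.84 in Het, which was called (adjusted p = 0.00178), and -0.98 in WT libraries. In the step to P18 and P20 Fxyd7 fell by 1.24 ± 0.23 in Het libraries (adjusted p = 0.00111), against a difference of -0.38 in WT libraries. From P18 and P20 to P28 and P32 the difference was -0.87 in Het libraries (adjusted p = 0.0654) and -1.94 in WT libraries. The Het difference in that last step was -1.28 and was called without Het P18 library 1b (adjusted p = 5.02e-04), and -1.20 with the Gapdh ratio in the model (adjusted p = 0.00209). With that ratio the WT difference in the last step was also -1.20. With the Gapdh ratio, the Het step from P15 to P18 and P20 was -0.63 and was not called (adjusted p = 0.122).

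Fxyd5 encodes dysadherin, a FXYD protein known for weakening cell adhesion in epithelia. At P10 it lay between 46.6 and 63.3 in Het and between 48.0 and 68.2 in WT libraries. Its intensity at P28 and P32 was 44.5, 23.7 and 30.5 in Het and 43.3, 22.3, 46.1 and 36.6 in WT libraries. All Het values at these later ages lay below all Het values at P10, and so did the WT values against WT P10. Fxyd5 fell by 0.81 ± 0.30 in Het libraries over this span (adjusted p = 0.0376, limma), and the difference was -0.73 ± 0.29 in WT libraries. The call was lost with quantile normalization, where the difference was -0.62 (adjusted p = 0.109), without a filter (adjusted p = 0.0593), with the title number as a block (-0.79), and on leaving out Het P10 library 1a (-0.84), 1b (-0.77) or 2b (-0.75), Het P28 library 1b (-0.58) or Het P32 library 1a (-0.77).

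In the step to P18 and P20, from P15, Fxyd5 fell by 0.88 ± 0.27 in Het libraries (adjusted p = 0.0256, limma), and the difference was -0.10 in WT libraries. The lowest Fxyd5 value of all, 13.7, was that of Het P18 library 1b. Without that library the Het difference was -0.57 (adjusted p = 0.188), and with the Gapdh ratio in the model it was -0.80 (adjusted p = 0.2). The call was also lost without Het P20 library 1a (-0.66) and without Het P15 library 2c (-0.83) or 1d (-0.76).

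Fxyd1 encodes phospholemman, a FXYD protein that is phosphorylated by protein kinases in heart and muscle and is also made in brain. Its intensity at P10 was 170, 419, 363 and 297 in Het and 272, 194 and 237 in WT libraries. At P15 it was 390, 385, 618 and 505 in Het and 434, 505, 395 and 475 in WT libraries. The WT ages did not overlap, whereas Het P10 library 1b lay above the lower pair of Het P15 libraries. At P18 Fxyd1 was at 348 and 243 in Het and 441 and 528 in WT libraries, and from P20 to P32 it lay between 333 and 394 in Het and between 282 and 362 in WT libraries. P15 held the highest Het value, and P18 the highest WT value. From P10 to P15 Fxyd1 rose by 0.65 ± 0.20 in Het libraries, 1.57-fold (adjusted p = 0.0207, limma), and the difference was 0.96 ± 0.22 in WT libraries. The Het call was lost without Het P10 library 1a, where the difference was 0.39, and without Het P15 library 2c (0.52) or 2d (0.61). Choroid plexus markers, 3 genes of a tissue within the brain ventricles, varied widely between the same libraries. They summed to 1671, 1314, 3001 and 1675 in Het P15 libraries, against 88.2, 2442, 1397 and 882 in Het P10 libraries. In WT libraries they summed to 1142, 1574, 1184 and 1672 at P15, against 1013, 103 and 447 at P10. Within each P10 group the libraries had the same order by these markers as by Fxyd1. So did the Het P15, WT P18 and WT P32 libraries and both genotypes at P20. The orders differed in WT P15 and Het P18 libraries and in both genotypes at P28. In Het P28 libraries the markers summed to 4882 and 374, with Fxyd1 at 338 and 346. The part of these markers in the Fxyd1 values was not tested. Over the whole span the differences were 0.19 ± 0.22 in Het (adjusted p = 0.531) and 0.50 ± 0.22 in WT libraries.

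Fxyd1 and Fxyd7, neighbours 223 bases apart, thus took different courses. Their correlation over the 12 group means of log2 intensity was 0.03. These 12 points share arrays and ages, and the correlation is a description.

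Fxyd2 encodes the gamma subunit, best known from kidney. It lay between 45.5 and 77.2 in Het and between 51.0 and 76.4 in WT libraries at P10, and between 30.6 and 49.8 in Het and between 40.8 and 68.3 in WT libraries at P28 and P32. The ages overlapped in both genotypes. The difference was -0.53 ± 0.21 in Het (adjusted p = 0.0546, limma) and -0.38 ± 0.21 in WT libraries, and the Het difference was called under 9 of 40 alternatives.

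**Figure D3:**
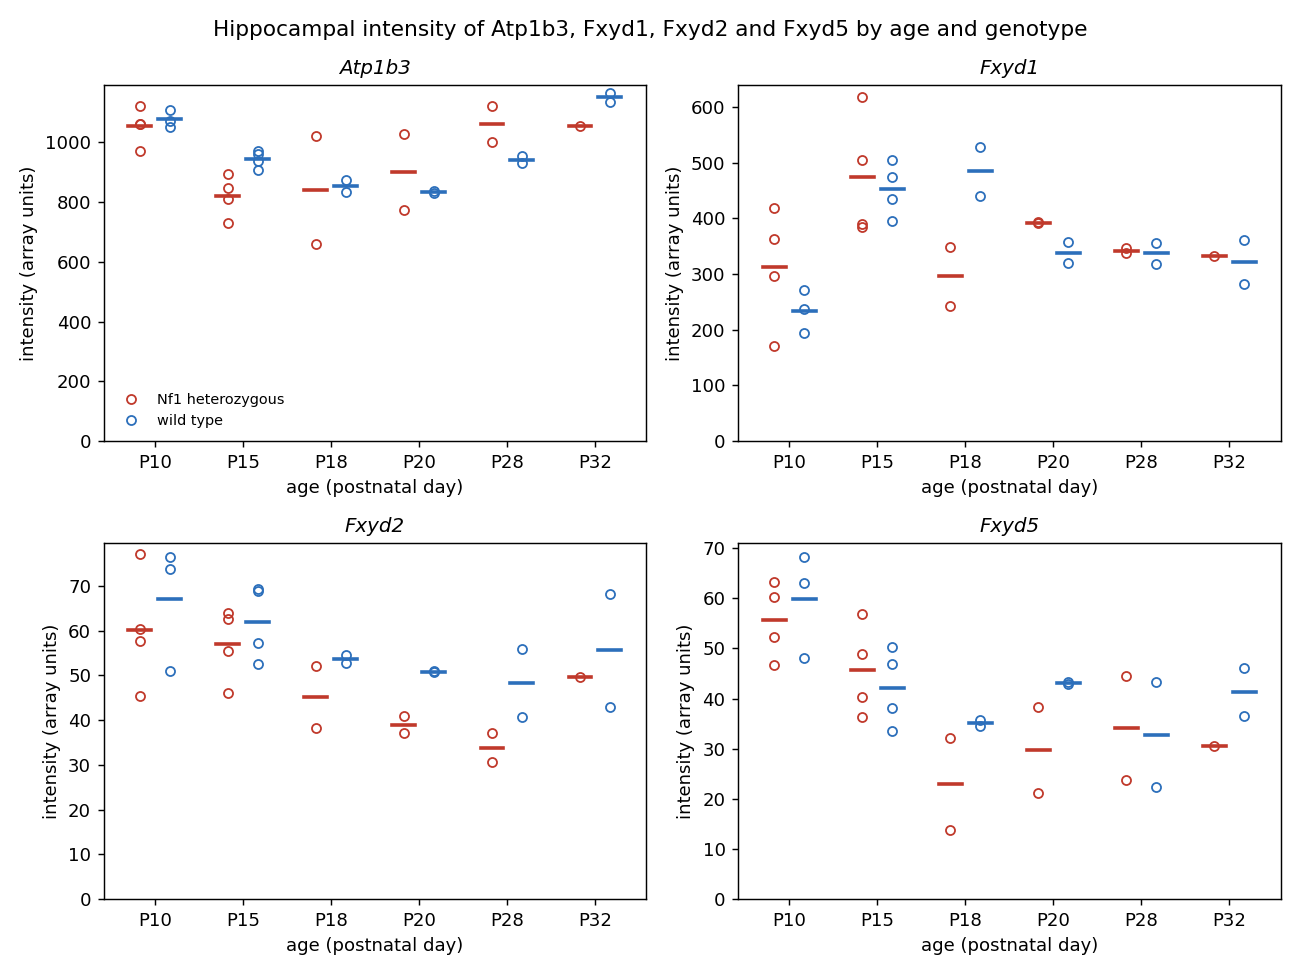
Intensity in array units of Atp1b3, Fxyd1, Fxyd2 and Fxyd5 by age, with 1 circle per library, Het (red) left of WT (blue), and bars at group means. Atp1b3 stays between 659 and 1167 at all ages, and Fxyd1 is highest at P15 in Het and at P18 in WT libraries.

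Atp1b3 encodes the beta-3 subunit, found in many tissues. At P10 it had an intensity of 1121, 1063, 973 and 1061 in Het and 1073, 1052 and 1110 in WT libraries. At P15 it had 846, 894, 812 and 731 in Het and 962, 909, 972 and 937 in WT libraries. Every P15 library lay below every P10 library of its genotype, and every Het value at P15 lay below every WT value. Atp1b3 fell by 0.36 ± 0.10 in Het libraries from P10 to P15 (adjusted p = 0.0131, limma), and the difference was -0.19 ± 0.11 in WT libraries. Without Het P15 library 2d the Het difference was -0.31 and was not called (adjusted p = 0.0565). The WT difference was -0.02 with the Gapdh ratio in the model. At P28 and P32 the level was again 1122, 1000 and 1056 in Het and 931, 954, 1135 and 1167 in WT libraries, and the ranges overlapped those of P10. Over the whole span the difference was 0.01 ± 0.11 in Het (adjusted p = 0.968) and -0.05 ± 0.11 in WT libraries.

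Atp1b2 encodes the beta-2 subunit, also known as the adhesion molecule on glia. Its intensity at P10 was 144, 188, 181 and 194 in Het and 127, 206 and 184 in WT libraries. At P15 it was 281, 311, 243 and 314 in Het and 266, 202, 350 and 341 in WT libraries. The genotypes overlapped at both ages, and every Het library was higher at P15 than at P10. At P18 Atp1b2 had 235 in Het library 1a, 96.4 in Het library 1b, and 437 and 461 in WT libraries. At P20 it had 189 and 193 in Het and 310 and 411 in WT libraries. All 4 WT libraries of these ages lay above all 4 Het libraries. At P28 it had 154 and 229 in Het and 130 and 126 in WT libraries, and at P32 it had 156 in Het and 104 and 170 in WT libraries. Both Het values at P28 lay above both WT values, and at P32 the Het value lay between the WT values.

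The course of Atp1b2 was a peak at P15 in Het libraries and at P18 in WT libraries. From P10 to P15 Atp1b2 rose by 0.70 ± 0.22 in Het libraries, 1.63-fold (adjusted p = 0.0263, limma), and the difference was 0.75 ± 0.24 in WT libraries. The WT difference was 0.35 with the Gapdh ratio in the model. The Het call was lost without Het P10 library 1a (0.61), Het P15 library 1d (0.66) or 2d (0.66). Then, to P18 and P20, it fell by 0.75 ± 0.22 in Het libraries (adjusted p = 0.0215), and the difference was 0.50 ± 0.22 in WT libraries. That Het call was lost without Het P18 library 1b (-0.43, adjusted p = 0.189), Het P20 library 1a (-0.75) or Het P15 library 1d (-0.71) or 2d (-0.71), and with the Gapdh ratio in the model (-0.08, adjusted p = 0.855). From P18 and P20 to P28 and P32 the difference was 0.01 ± 0.25 in Het (adjusted p = 0.989) and -1.62 ± 0.22 in WT libraries, 3.07-fold lower at the later ages. With the Gapdh ratio in the model this WT difference was -0.81. Over the whole span Atp1b2 differed by -0.04 in Het (adjusted p = 0.923) and -0.37 in WT libraries.

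Counted over the steps in Het libraries, 4 of 7 members were called from P10 to P15, where Atp1b1, Atp1b2 and Fxyd1 rose and Atp1b3 fell, against 21.2% of all tested probe sets. From P15 to P18 and P20, 3 of 7 fell (Atp1b2, Fxyd5 and Fxyd7) and 0 rose, against 18.7% of all tested probe sets. In the step to P28 and P32, 0 of 7 were called, against 2.43% of all (1311 at an unadjusted p-value below 0.05 in limma). Fxyd7, given above, and Atp1b3, at 0.46, were called without Het P18 library 1b. The share of all tested probe sets called in that fit is not given here. The rule that chose the members did not use these Het steps, but earlier results of the Het libraries were also known, so the Het calls are not independent support for the choice.

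Genotypes were compared at each age, over all ages together and in their age steps, to ask whether loss of 1 Nf1 allele goes with a different level of the pump genes. Over all ages 0 of 7 members were called, with 0% of all tested probe sets called and 698 at an unadjusted p-value below 0.05 in limma. The differences ranged between -0.24 for Fxyd2 and 0.03 for Fxyd1, with -0.22 ± 0.16 for Atp1b2, -0.22 ± 0.13 for Fxyd7 and 0.00 ± 0.07 for Atp1b1. At P10 and P15, 0 of 7 members were called, against 0.0403% and 0% of all (443 and 440 probe sets at an unadjusted p-value below 0.05). At P28 and P32, 0 of 7 were called, against 0.0134% and 0.0537% of all (385 and 509 probe sets at an unadjusted p-value below 0.05).

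P18 was the age with member calls. Atp1b2 was lower in Het than in WT libraries, with a log2 difference of -1.58 ± 0.32, or 0.335 of the WT level (adjusted p = 0.00175, limma), and so was Fxyd7, with -0.93 ± 0.32, or 0.526 of the WT level (adjusted p = 0.0406). These were 2 of 7 members, against 22.8% of all tested probe sets called at this age, so the members' share is close to that of the array. The differences of the others were -0.74 for Fxyd5 (adjusted p = 0.157), -0.73 for Fxyd1 (0.0626), -0.27 for Fxyd2 (0.501), -0.06 for Atp1b3 (0.808) and -0.01 for Atp1b1 (0.974). With all libraries, the median over the members was -0.73 and over all tested probe sets -0.05. Without Het P18 library 1b the differences were -0.13 for Fxyd5, -0.47 for Fxyd1, -0.04 for Fxyd2, -0.37 for Atp1b3 and 0.04 for Atp1b1. With the Gapdh ratio in the model they were -0.63, -0.46, -0.07, -0.49 and 0.11 in that order.

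Both P18 calls rested on Het library 1b. Without it the Atp1b2 difference was -0.93 (adjusted p = 0.101) and the Fxyd7 difference -0.12 (adjusted p = 0.857), and 264 of 7453 probe sets were called at this age, against 1700 with it. Without Het P18 library 1a more member calls at single ages were made than the 2 above. The share of all tested probe sets called without it is not given here. The Fxyd7 call was also lost without WT P18 library 1c (-0.84) or 1d (-1.02). In a fit of the P18 libraries alone the Atp1b2 difference was also -1.58 and was not called (adjusted p = 0.208, limma). The Gapdh ratio ran parallel to genotype at P18 and P20. With that ratio in the model the P18 difference was -0.53 for Atp1b2 (adjusted p = 0.355) and 0.03 for Fxyd7 (adjusted p = 0.982).

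At P20 the 2 Het libraries were close to each other for Atp1b2 and Fxyd7, but not for Fxyd5 (21.2 and 38.4) or Atp1b3 (773 and 1029). Atp1b2 differed between Het and WT libraries by -0.90 ± 0.32 (adjusted p = 0.132, limma) and Fxyd7 by -0.85 ± 0.32 (adjusted p = 0.173). In this comparison 0 of 7 members were called, against 2.27% of all tested probe sets and 1216 at an unadjusted p-value below 0.05. In a fit of the P20 libraries alone the Atp1b2 difference was also -0.90 and was called (adjusted p = 0.0494, limma). The share of all tested probe sets called in that fit is not given here. In the main fit the Het P18 libraries enter this comparison through the pooled spread alone. The Atp1b2 difference was called without Het P18 library 1a and without 1b alike, at -0.90 each time. The Fxyd7 difference was called without library 1b. With the Gapdh ratio in the model the P20 differences were 0.02 for Atp1b2 and 0.00 for Fxyd7. With the title number as a block they were -0.61 for Atp1b2 (adjusted p = 0.438) and -0.96 for Fxyd7 (adjusted p = 0.218). In that fit the effect of the number comes from P10 and P15, where each genotype has libraries of either number. It cannot tell the number from the genotype at P20.

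**Figure D4:**
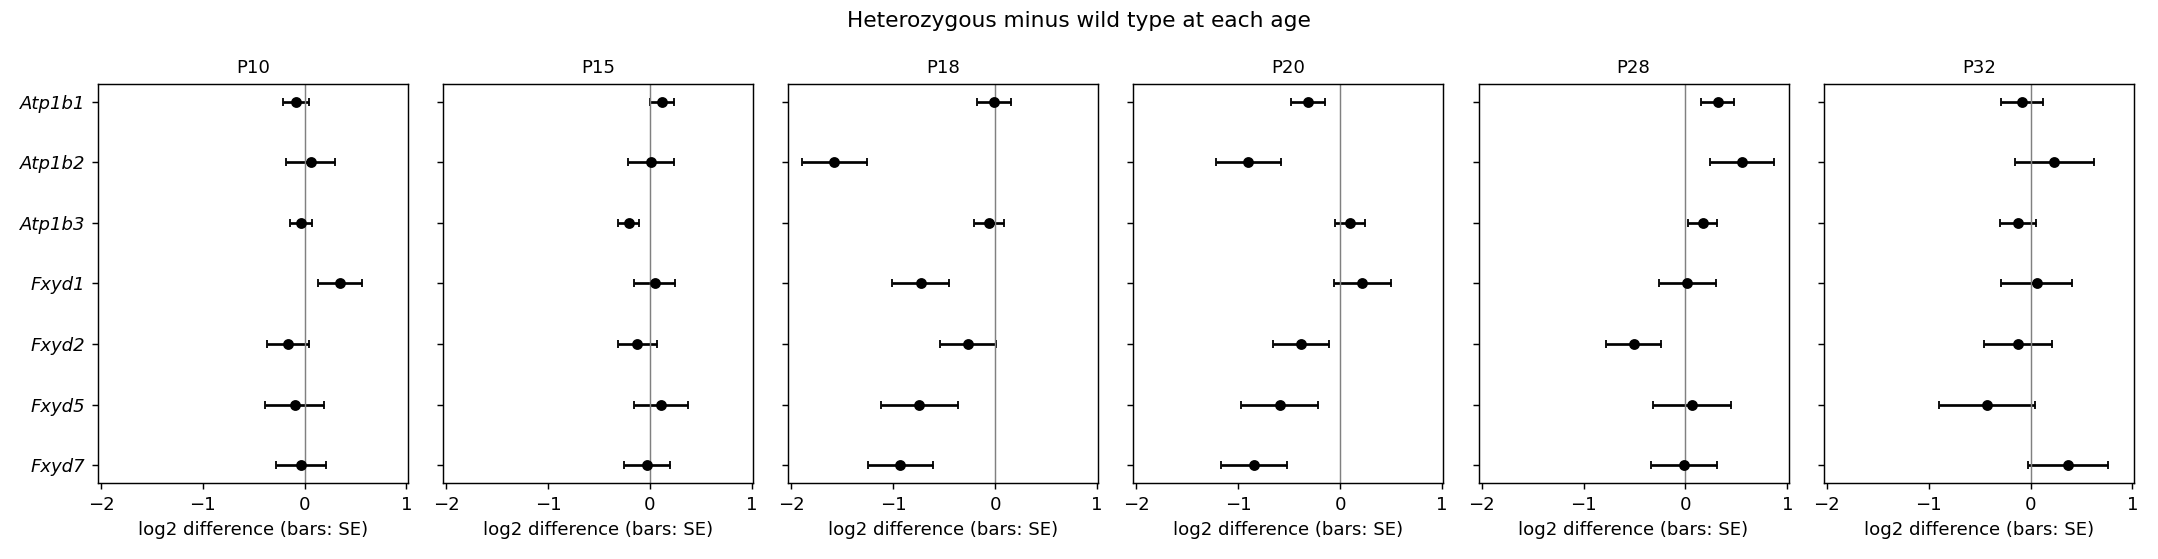
Log2 differences, Het minus WT, of the 7 tested members at each age, with SE bars on an axis shared by the panels. Atp1b2 lies at -1.58 at P18 and -0.90 at P20, and Fxyd7 at -0.93 and -0.85, while at P10 and P15 the differences of all 7 members lie between -0.21 and 0.35.

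The differences between genotypes in the single age steps contain the WT steps, whose values were known when the family was chosen, and are given as a description with no test. From P15 to P18 and P20 the step of Atp1b2 was lower in Het than in WT libraries by a log2 difference of -1.25 ± 0.32 (SE). The difference was -0.86 ± 0.32 for Fxyd7 and -0.78 ± 0.38 for Fxyd5, and between -0.30 and 0.23 for the other members. Under the alternatives it lay between -1.26 and -0.05 for Fxyd7 and between -1.09 and -0.23 for Fxyd5. In the step to P28 and P32 the difference between the genotypes was 1.63 ± 0.34 for Atp1b2 and 1.07 ± 0.34 for Fxyd7. With the Gapdh ratio in the model the differences were -0.37 and 0.47 for the Atp1b2 steps and 0.01 for Fxyd7 in the last step. Without Het P18 library 1b they were -0.93 and 1.31 for the Atp1b2 steps and 0.66 for Fxyd7 in the last step. Over the whole span 0 of 7 members differed between genotypes, with 0% of all tested probe sets called and 508 at an unadjusted p-value below 0.05 in limma. An F test of genotype by age over the 6 ages called Atp1b2 (adjusted p = 0.0223, limma) and not Fxyd7 (adjusted p = 0.209), 1 of 7 members against 6.49% of all. This test also draws on the known WT values, so it is not independent support, and its Atp1b2 call was lost with the Gapdh ratio in the model and without Het P18 library 1b.

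Markers of several cell types moved with the same comparisons. Of all tested probe sets 22.8% were called at P18, far fewer without Het library 1b as given above, and 2.27% at P20. Library 1b had the lowest P18 sums of microglial and blood markers, 1792 and 1740. It also had the highest P18 sums of astrocyte and neuronal markers, 3250 and 11848. Astrocyte markers summed to 2593 and 3250 in Het P18 libraries, against 1881 and 2089 in WT P18 libraries, with 2 of 6 called higher and 1 lower in Het. Microglial markers summed to 1792 and 2119 in Het, against 2442 and 2462 in WT P18 libraries, with 4 of 6 called lower. Blood markers summed to 1740 and 2952 in Het, against 3635 and 4489 in WT P18 libraries, with 2 of 3 called lower. Neuronal markers summed to 9886 and 11848 in Het, against 9708 and 9807 in WT P18 libraries, with 1 of 7 called higher and 1 lower. Choroid plexus markers summed to 1126 and 1565 in Het, against 1649.5 and 2280.5 in WT P18 libraries, with 1 of 3 called lower (Folr1, by -3.44). Endothelial markers summed to 591 and 648 in Het, against 589.9 and 590.0 in WT P18 libraries, with 2 of 5 called higher (Flt1 at 1.59 and Tek at 0.81). Of the 6 oligodendrocyte markers 0 were called at P18, with sums of 8301 and 8445 in Het and 7536 and 8482 in WT libraries. At P20 the astrocyte markers summed to 3212 and 2127 in Het, against 1629.8 and 1931 in WT libraries, with Aqp4 (1.03) and Glul (0.90) called higher. Among neuronal markers Syt1 was called lower at P20 (-0.85), and 0 markers of the other 5 lists were called. The 2 Het P20 libraries also differed in their sums of choroid plexus markers, 2494 and 1321, and of blood markers, 2846 and 4646. The part of any of these in the Atp1b2 and Fxyd7 values was not tested.

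The whole-span change in Het libraries also went with large marker changes, whose part in the members' changes was not tested. Of all tested probe sets 36.5% were called over this span. Oligodendrocyte markers summed to between 8698 and 9166 in Het libraries at P28 and P32, against 641 to 820 at P10, and all 6 tested rose, with Mog at 6.15, Mobp at 5.91 and Mal at 4.74. Astrocyte markers summed to between 2970 and 3418, against 1874 to 2115 at P10, with 4 of 6 risen and 1 fallen, and the largest changes in Glul (2.13), S100b (1.89) and Gjb6 (1.20). Neuronal markers summed to between 8823 and 9209, against 10668 to 12854 at P10, with 1 of 7 risen and 3 fallen, Map2 by 1.46, Stmn2 by 1.25 and Tubb3 by 0.76. Of the other lists, 3 of 6 microglial markers rose and 1 fell (Ctss at 1.27, Cx3cr1 at -0.83, C1qb at 0.60). Among choroid plexus markers 1 of 3 rose (Kl at 2.18, with Ttr at 0.65 and Folr1 at 0.12 not called). Among endothelial markers 1 of 5 fell (Cldn5 at -0.77, with Cdh5 at -0.39 and Pecam1 at -0.30 not called), and among blood markers 1 of 3 fell (Hba-a1 at -0.55, with Alas2 at -0.35 and Hbb-b2 at 0.22 not called). In all 7 lists, 0 marker values were at 0 in any library.

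Genes that work beside the pump are given from 3 lists over the same Het span. Of other P-type ATPases, which pump calcium, protons, copper or lipids, 2 of 13 tested rose and 4 fell, with a median of -0.23. Among them Atp13a2, a lysosomal transporter, fell by 0.93, Atp4a, the catalytic subunit of the gastric proton pump, fell by 0.71, and the lipid flippase Atp8a1 had -0.66 (adjusted p = 0.101). Of carriers that run on the sodium gradient the pump maintains, 3 of 12 rose and 0 fell, with a median of -0.02. They were Slc12a2, the sodium-potassium-chloride importer, by 1.37, the creatine carrier Slc6a8 by 0.65 and the amino acid carrier Slc38a2 by 0.60. Of proteins that bind, anchor or regulate the pump, 1 of 12 rose and 2 fell, with a median of -0.07. Here Agrn, agrin, fell by 0.81, Nkain1, a membrane protein that interacts with beta-1, fell by 0.77, and the kinase Src had -0.79 (adjusted p = 0.141). The median over all tested probe sets was -0.06, and 36.5% were called.

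Probe sets with the most similar course were ranked by Pearson correlation over the 12 group means of log2 intensity, a description over points that share arrays. Fxyd7 was most like Atox1 (0.986), Marcksl1 (0.983), Mgst3 (0.982) and Dhrsx (0.980). Atp1b1 was most like Scn1a (0.970), Kcnab2 (0.960), Tmem59 (0.959) and Hspa1b (0.958). Atp1b2 was most like Rasgrp1 (0.974), Arf3 (0.969), Kif5a (0.968) and Cplx1 (0.963). Among the members themselves, the correlation over the same means was -0.72 between Atp1b1 and Fxyd7, 0.71 between Fxyd2 and Fxyd5, 0.67 between Atp1b2 and Fxyd1, -0.59 between Atp1b2 and Atp1b3 and 0.14 between Atp1b1 and Atp1b2.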

How the data were processed

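Hippocampal RNA of 30 pools was hybridised to 30 arrays, 15 of Het and 15 of WT pups over 6 ages. The authors deposited linear intensity values, 1 per probe set and array, and no source used here names their software, background correction or detection calls. Array means trimmed by 2% at either end were 150.083 to 150.09, so the deposited values had been scaled per array. No further scaling was applied here. Values were floored at 1 and converted to log2 here, and the 40% of non-control probe sets with the lowest mean log2 were left out, which kept 7453 with a mean intensity of 30.9 or more. The number of arrays limits the precision, and with no scanner files the background of dim probe sets is unknown.

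Gene names came from the platform annotation, where 10833 non-control probe sets had 1 symbol, 396 several and 1193 none, and all 8 member symbols were found in RefSeq. A model with a mean for each of the 12 groups was fitted with limma 3.58.1 (R 4.3.3), with an intensity trend and Benjamini-Hochberg adjustment over all 7453 probe sets, and genotype over all ages came from a model of age and genotype. Calls were made at 0.05. The script was tested on simulated data. Members, lists and tests were chosen with earlier results of these data known. Every member is named, with the 3 genes of each list that had the largest Het change over the whole span, and the 4 probe sets most like each of Atp1b1, Atp1b2 and Fxyd7. Alternatives changed the offset, floor, filter, scaling, trend, weights, samples, blocks and Gapdh covariate, and left out each library in turn.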

Additional observations from a re-analysis of the deposited data

Results flagged for a closer look

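The dim Atp1b1 probe set in WT libraries at P15 had 1 value of 6.13, against 31.5 to 33.2 in the other 3 libraries. The gap to the nearest was 0.969 of the group's range, above Dixon's critical ratio for 4 values. Of 30 such groups (10 probe sets in 3 groups of 4 libraries), 1 was singled out this way, and chance alone does so in about 1 of 20 groups. The bright Atp1b1 probe set was at 452 in that library, the highest of its group.

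The F test of genotype by age over the 6 ages gave an adjusted p-value of 0.0223 for Atp1b2 in limma. It draws, among others, on the P18 and P20 libraries, whose Gapdh ratios differed between genotypes, and it includes WT values known when the family was chosen.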

How the results depend on the processing

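Over the whole Het span, where 3 members were called, the alternatives gave 2 to 4. Over all ages 0 differed by genotype under every alternative. From P10 to P15, where 4 were called, the replicate block by title code left 1, and leaving out single libraries gave 1 (Het P15 2d) to 5, with 2 without Het P10 1a. From P15 to P18 and P20, where 3 were called, array weights left 1, and the replicate block, the fit of the compared groups only and the Gapdh covariate each left 0. Leaving out single libraries gave 1 (Het P20 1a, Het P15 1d or Het P18 1b) to 5 (Het P18 1a). From P18 and P20 to P28 and P32, where 0 were called, the Gapdh covariate gave 2, and single libraries gave 0 to 2 (2 without Het P18 1b). For genotype at single ages, where 2 were called, the fits without a filter, without a trend and with array weights gave 1, the replicate block and the Gapdh covariate gave 0, and single libraries gave 1 (WT P18 1c or 1d) to 6 (Het P18 1a). The interaction, with 1 call, gave 0 under the replicate block and the Gapdh covariate, and 0 (WT P18 1c or 1d, or Het P18 1b) to 2 (Het P18 1a) over single libraries. The cause of these changes was not tested. The shares of all tested probe sets called under these alternatives are not given here. A change in the members' counts therefore cannot be told from a change over the whole array. Over 7 pairs of libraries sharing a title code (a number and a letter), the correlation of deviations from group means ranged from -0.177 to 0.126. Both pairs at P28 have the same value by construction, since deviations in a group of 2 mirror each other. No P18 or P20 libraries of different genotype share a code, so pairing by code could not be checked at those ages.

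At least 1 alternative turned the sign of 49 of 133 values, most of them near 0. They include Atp1b3 from P18 and P20 to P28 and P32 in WT libraries (-0.033 with the Gapdh covariate), Fxyd2 in that step (0.28 with the replicate block), Fxyd7 between genotypes at P18 (0.027 with the Gapdh covariate) and Atp1b2 between genotypes at P20 (0.024 with that covariate). Fxyd7 from P10 to P15 in Het libraries was called under 9 of 41 alternatives. Most groups hold 2 libraries, Het P32 holds 1, and each gene rests on 1 tested probe set.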
